A study of Homo sapiens with 8 samples.

Results

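Narrow open regions are stretches of FAIRE signal no wider than 300 bp, and they make up 15189 of the 35741 open regions in this series (42.5%). They were taken from a table of raw counts in 150 bp windows, placed in steps of 50 bp on the human genome. Windows on the same chromosome with a gap of 100 bp or less were merged, and every merged region of 300 bp or less was kept. These regions hold 36189 of the 256141 windows (14.1%). The rule used only the positions of windows and no contrast between groups. However, a region is narrow because few windows there are in the deposited table, and how the table's windows were chosen is not stated.

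The libraries came from AIRE-Tet cells, a Tet-On Advanced line of HEK293 (human embryonic kidney) origin in which doxycycline switches on human AIRE. There were 4 groups of 2 biological replicates. DoxEtop cells had AIRE induced with 1.5 µM doxycycline for 24 h and were then given 2 µM etoposide for 24 h. Dox cells had doxycycline alone, Etop cells had etoposide alone, and Control cells had neither. The length of doxycycline treatment in Dox cells is not given here. "AIRE-induced" below means the 4 Dox and DoxEtop libraries, and "uninduced" the 4 Control and Etop libraries. All groups are the same line with the same transgene, and cells that lack the AIRE transgene but received doxycycline were not analysed here. The drug and AIRE therefore cannot be told apart. Cell identity could not be checked against marker genes, since windows carry positions of the hg19 build and no gene names, and no hg19 sequence or annotation was used.

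FAIRE-seq (formaldehyde-assisted isolation of regulatory elements) reads the DNA recovered in water when crosslinked chromatin is extracted with phenol and chloroform. Such DNA is poorly bound by nucleosomes and is typical of active promoters, enhancers and insulators. Wide open regions usually span a promoter with its flanks, while a short one can be a single nucleosome-depleted site or the summit of a weak one. AIRE, the autoimmune regulator, is a nuclear protein of the thymus that raises transcription of many tissue-restricted genes. Etoposide is a topoisomerase II poison that causes breaks in DNA.

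The deposited counts sum to 5169600, 4489871, 5305079 and 5034832 per library in the AIRE-induced arm and to 8275911, 6787276, 7134106 and 4568818 in the uninduced arm. These are sums over overlapping windows, not library depths, and all levels below are relative to them (CPM, counts per 1e6 of the column total after TMM scaling). Control replicate 1 stood nearer to the induced libraries than the other uninduced ones did at narrow regions, so the main differences are also given without it. The labels call the replicates independent biological replicates.

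Of the narrow regions, 4526 were a single window of 150 bp, 3559 were 200 bp wide, 3333 were 250 bp and 3771 were 300 bp. Most windows of a region overlap each other and share fragments, so neighbouring windows are not separate observations. Narrow regions were weak. Their strongest window had a median of 2.86 CPM (averaged over the 8 libraries), against 4.67 CPM in wider regions, and reached at most 5.08 CPM, against 127 CPM. Over the 8 libraries a window of a narrow region summed to a median of 134 counts and one of a wider region to 168, where the smallest sum in the table is 111. A typical narrow window thus rested on 12 to 14 counts in each induced library, and on 14 to 23 in each uninduced library, which limits the precision of any single window.

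The strongest narrow regions were of differing kinds. The highest was chr12:90796251-90796550, which lay 692150 bp from any other region and averaged 6.87 ± 1.11 CPM in the AIRE-induced libraries and 3.30 ± 1.80 CPM in the uninduced libraries (SD, n = 4 each). Next was chrX:87186951-87187250, with 6.72 ± 1.46 CPM in AIRE-induced and 3.43 ± 2.30 CPM in uninduced libraries. The region chr7:25891301-25891600 had 5.40 ± 0.686 CPM in AIRE-induced and 4.51 ± 0.983 CPM in uninduced libraries, a difference within the spread between libraries. At chr1:229363251-229363550 the order was the other way round, with 3.19 ± 0.573 CPM in AIRE-induced libraries and 6.43 ± 2.18 CPM in uninduced ones. The fifth, chr6:14144901-14145200, had 3.79 ± 0.707 CPM in AIRE-induced and 5.81 ± 0.695 CPM in uninduced libraries. These 5 were picked for their mean level over all libraries, and both directions occurred among them.

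With AIRE induced, narrow regions carried less of the FAIRE signal. They took 9.86% and 9.82% of the counts in the Dox libraries and 9.09% and 9.70% in the DoxEtop libraries, against 10.3% and 12.2% in Control and 12.1% and 11.3% in Etop. All 4 AIRE-induced libraries lay below all 4 uninduced ones, with means of 9.62 ± 0.357% and 11.5 ± 0.871% (SD, n = 4 each; exact permutation test over 70 assignments, two-sided, p = 0.0286, the smallest it can give). A minimum on summed counts would be reached more easily by windows high in uninduced libraries, whose totals are larger. This test therefore does not stand apart from the choice of windows and is read together with the re-formed regions below. How the windows were chosen is not stated. Only 2 windows have the smallest sum of 111, and the most frequent sum is 129, so the minimum may not have been set on sums. A minimum on mean CPM would weigh all libraries equally. The share of counts in the strongest 1% of all windows, a measure of how concentrated a library's counts were within the table, was 3.16 ± 0.0614% in AIRE-induced and 3.07 ± 0.102% in uninduced libraries (exact permutation test, two-sided, p = 0.2, n = 4 each). It leaves out reads outside the table's windows, so it does not measure how well a library was enriched. Its part in the narrow-region result was not tested.

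The same appears window by window. The level of a window was expressed as log2 CPM relative to its mean over the 8 libraries, and the median over narrow windows was taken in each library. It was -0.0339 and -0.0513 in Dox and -0.167 and -0.0554 in DoxEtop, against 0.0471 and 0.229 in Control and 0.215 and 0.141 in Etop. The induced mean was -0.0768 ± 0.0607 and the uninduced mean 0.158 ± 0.0833 (SD, n = 4 each), and the arms did not overlap. DoxEtop replicate 1 was the lowest of all and Control replicate 1 the lowest of the uninduced. Wider windows had 0.0450 ± 0.00445 in AIRE-induced and 0.0136 ± 0.0279 in uninduced libraries, so the contrast between narrow and wider windows of the same library was -0.122 ± 0.0646 and 0.144 ± 0.111. The 2 arms differed in that contrast by -0.266 (exact permutation test, two-sided, p = 0.0286, n = 4 each), and by -0.313 without Control replicate 1. The difference was -0.232 without Control replicate 2, and -0.236 without DoxEtop replicate 1 (exact permutation p = 0.0571). These values are relative to each library's total over the table, so a change of the same size at all windows would not show. They carry the same limit from the choice of windows as the shares above.

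**Figure D1:**
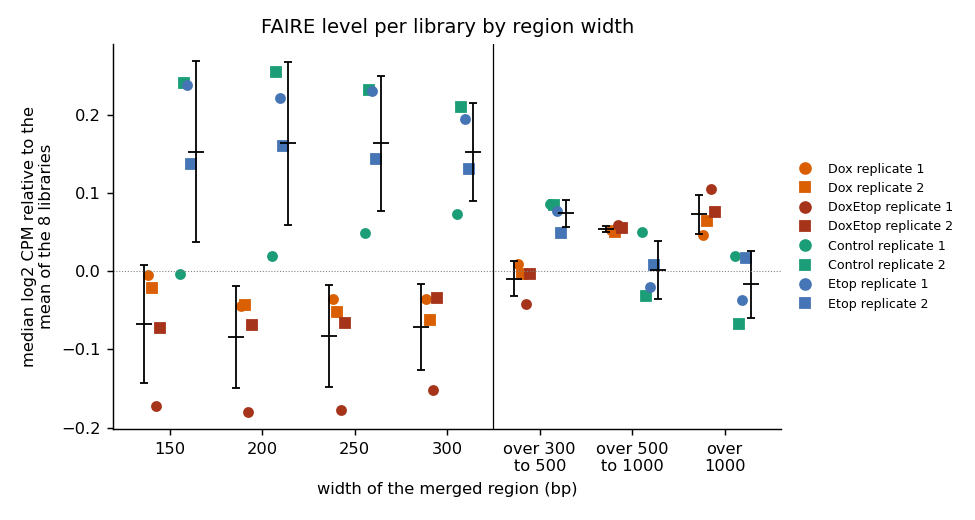
Median log2 CPM of windows, relative to each window's mean over the 8 libraries, by the width of the merged region in bp; points are libraries, bars are the mean ± SD of the 4 AIRE-induced (left) and the 4 uninduced libraries (right), and the vertical line marks the limit of 300 bp. The 4 width classes up to 300 bp show like differences between the arms, while the class over 300 to 500 bp shows a smaller one.

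Width within the limit made little difference. The induced-minus-uninduced difference in median level was -0.221 in regions of 150 bp, -0.248 at 200 bp, -0.246 at 250 bp and -0.223 at 300 bp. Just outside the limit it was -0.0839 in regions over 300 and up to 500 bp. The median log2 fold change of windows was -0.24 in regions of 250 bp, -0.21 in those of 300 bp and -0.16 in the 3925 regions of 350 bp, so values changed gradually across the limit. In single windows of 150 bp Control replicate 1, at -0.00371, lay next to Dox replicate 1, at -0.00433.

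AIRE induction lowered FAIRE signal at 3594 windows of narrow regions and raised it at 193. All windows were tested with edgeR's quasi-likelihood F test, with etoposide as a second factor and Benjamini-Hochberg adjustment at 0.05, as for all calls given here. Lower windows made up 9.93% of the narrow windows, against 5.55% of the wider ones, with 6.17% called lower over the whole table. Higher windows made up 0.533% of the narrow windows, against 1.39% of the wider ones, with 1.27% over the whole table (7.44% in either direction). Of the called windows in narrow regions 94.9% were lower, against 80.0% in wider regions. The 3594 lower windows lay in 1783 narrow regions, of which 1171 had every window called, and no narrow region held calls in both directions. Counted over regions, of which wider ones hold more windows each, the order was the other way round. A share of 11.7% of narrow regions had a window called lower, against 19.6% of wider regions, and 0.830% had one called higher, against 7.35%. Since narrow windows sit near the smallest sum in the table, these counts are given as description and read together with the re-formed regions below.

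Among the 3594 lower windows, the median of the mean level was 1.40 CPM in AIRE-induced and 4.51 CPM in uninduced libraries. The library medians were 1.53 and 1.32 CPM in Dox and 0.933 and 1.58 CPM in DoxEtop, against 3.01 and 5.39 CPM in Control and 5.31 and 4.17 CPM in Etop. Control replicate 1 was the lowest uninduced library at 64.3% of these windows, which is a share of 31.0% over all narrow windows. The arms did not overlap at 71.8% of the lower windows, which were picked for a difference between the arms, and at 14.2% of all narrow windows. The share without overlap over the whole table is not given here. No narrow window had 0 counts in all 4 AIRE-induced libraries. All 4 AIRE-induced libraries held 3 counts or fewer in 26 narrow windows. At the 193 higher windows the median of the mean level was 4.11 CPM in AIRE-induced and 1.57 CPM in uninduced libraries. Without Control replicate 2 the counts were 1402 lower and 39 higher, and without DoxEtop replicate 1 they were 1836 and 67.

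Column totals summed to 19999382 in the AIRE-induced arm and 26766111 in the uninduced arm. If the minimum was set on summed counts, a window that is high in uninduced libraries would reach it more easily. With the totals of the arms exchanged, 231 narrow windows would fall under the minimum of 111, and 225 of those were called lower and 0 higher. The exchange reduces a sum only where the level is higher in uninduced libraries, so the direction of these calls follows from the exchange. Over all windows, narrow and wider, 460 of the 475 that would fall under the minimum (96.8%) were called lower and 0 higher. These counts are given as description. Among the 17237 narrow windows with at least 129 counts both as deposited and after the exchange, 7.21% were lower and 0.354% higher. When regions were formed again from windows that met this in both directions, the 30047 windows of regions up to 300 bp had 7.93% lower and 0.513% higher, and the 173621 windows of wider regions 4.57% and 1.49%.

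Forming regions again from windows of higher level changed the set and the result. With a minimum of 3 CPM for the mean of the arms, 28223 windows lay in regions up to 300 bp, 11042 of which belong to narrow regions of the whole table, and their median level differed by -0.152 between the arms (exact permutation test, two-sided, p = 0.0286, n = 4 each). At 4 CPM only 358 of 20929 windows were narrow in the whole table, and the difference was 0.00449 (exact p = 0.743). At 5 CPM 4 of 14937 were, and it was 0.0634 (exact p = 0.143). The difference between the arms thus passed in short regions formed at 3 CPM and did not pass in those formed at 4 or 5 CPM, few of whose windows belong to narrow regions of the whole table.

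The difference was not found at the smallest sums and was larger at larger ones. At 111 to 129 counts the median level of narrow windows differed by 0.0294 between the arms (exact permutation test, two-sided, p = 0.229, n = 4 each), while that of wider windows was higher by 0.189 in the AIRE-induced arm. In the next 3 classes of summed count the narrow difference was -0.314, -0.406 and -0.498 and the wider one -0.0293, -0.0114 and 0.0152. At sums of 111 to 129 counts, 1.46% of narrow and 0.813% of wider windows were called lower, and 1.02% and 1.60% higher. At 130 to 134 counts the shares were 10.4% and 5.35%, at 135 to 160 counts 15.2% and 5.98%, and at 161 to 236 counts 21.1% and 6.39%. The share of lower windows was larger at larger sums in narrow regions. The difference between narrow and wider windows in the median level was -0.160, -0.284, -0.394 and -0.514 (induced minus uninduced) in these 4 classes, each with a two-sided exact permutation p of 0.0286 (n = 4 each, adjusted p = 0.0286 over the 4). The summed count weighs the uninduced arm more, since the column totals of that arm are larger. These classes are therefore not independent of the difference between the arms, and the rise across them is given as description. If windows were chosen by mean CPM instead, the smallest sums would favour windows high in AIRE-induced libraries, since that arm has the smaller total. The authors' choice of windows is not stated in the labels or the file, and its part in this rise was not tested.

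**Figure D2:**
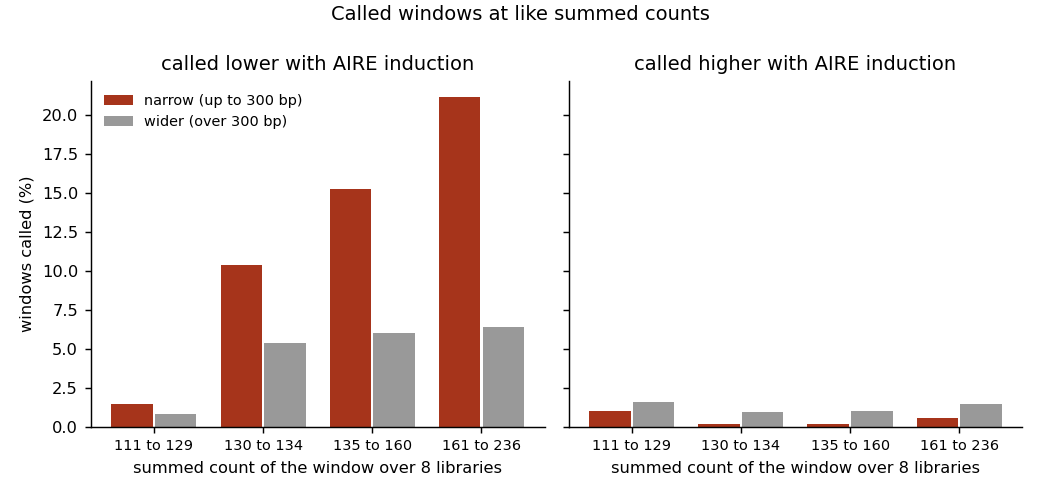
Percent of windows called lower (left) and higher (right) with AIRE induction, by the window's summed count over the 8 libraries, in narrow regions and in wider regions. Among windows called lower, the narrow bar stands above the wider bar in each class, from 1.46% and 0.813% at the smallest sums to 21.1% and 6.39% at the largest. The summed count weighs the uninduced arm more, so the classes are not independent of the difference between the arms.

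The regions with the largest losses were nearly empty in AIRE-induced cells. At chr17:41322301-41322500 (2 windows, 450 bp from the next region) the strongest window had 1 and 0 counts in Dox and 0 and 0 in DoxEtop, against 3 and 67 in Control and 54 and 21 in Etop. The pooled level was 110-fold lower in AIRE-induced libraries, with a counting interval of 19.5 to 4393 (95%, exact), and edgeR gave -6.32 on the log2 scale (SE 0.83, adjusted p = 5.68e-07). Control replicate 1, with its 3 counts, lay just above the induced libraries. Intervals of this kind cover counting error only.

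At chr1:54547351-54547650, where all 4 windows were called, the strongest had 2 and 2 counts in Dox and 2 and 5 in DoxEtop, against 24 and 46 in Control and 75 and 34 in Etop. This is 0.546 ± 0.297 CPM in AIRE-induced and 7.0 ± 3.23 CPM in uninduced libraries (SD, n = 4 each), with the smallest adjusted p of the narrow regions named here (log2 fold change -3.64, SE 0.45, edgeR adjusted p = 1.31e-07). The gap between the arms was wide here, and this region lay 27900 bp from its neighbour. At chr1:226735451-226735750, which lies 250 bp from a region of 2100 bp, the strongest window had 0 and 0 counts in Dox and 0 and 7 in DoxEtop, against 13 and 89 in Control and 68 and 22 in Etop. DoxEtop replicate 2, at 1.38 CPM, came close to Control replicate 1, at 1.57 CPM.

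The region chr19:40951801-40952100 had 1, 1, 3 and 1 counts in the AIRE-induced libraries, against 11 and 51 in Control and 78 and 21 in Etop, 20.4-fold lower (counting interval 9.19 to 56.5). On chromosome 6, chr6:36328301-36328500 had 0, 0, 0 and 6 counts in the AIRE-induced libraries, against 14 to 65 in the uninduced, and chr6:116937451-116937650 had 0 to 4 against 18 to 60. Both chromosome X regions among the 10 lowest were far from other regions. They were chrX:109134251-109134450, 110900 bp from its neighbour with 0 to 3 counts against 13 to 60, and chrX:128109751-128110000, 546300 bp away with 1 to 3 counts against 16 to 58. The list is completed by chr15:69351551-69351800, with 0 to 3 counts in AIRE-induced and 14 to 66 in uninduced libraries, and chr10:104238751-104239050, with 0 to 5 against 19 to 68. In every one of the 10, Control replicate 1 was the lowest uninduced library except at chr10:104238751-104239050 by raw count, where Etop replicate 2 had 19 counts to its 21, although in CPM Control replicate 1 was lowest there too. All 10 were called with edgeR (adjusted p = 1.31e-07 to 2.84e-06), and all 10 stood above the median level of narrow regions by the rule that named them.

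Gains were smaller in fold change than the losses. At chr9:139948151-139948350 the strongest window had 4.20 and 7.28 CPM in Dox and 3.54 and 3.76 CPM in DoxEtop, against 1.20 and 1.05 CPM in Control and 0.861 and 2.41 CPM in Etop. The edgeR log2 fold change was 1.79 (SE 0.42, adjusted p = 0.00362). At chr9:129622551-129622850 the levels were 4.20, 5.51, 5.78 and 4.35 CPM in the AIRE-induced libraries, against 1.69, 1.35, 1.72 and 1.75 CPM in the uninduced, a mean of 4.96 ± 0.804 against 1.63 ± 0.188 CPM. The uninduced libraries were nearly equal here, and Control replicate 1 was not apart from them. At chr8:143863901-143864200 the mean was 4.75 ± 1.10 CPM in AIRE-induced and 1.43 ± 0.166 CPM in uninduced libraries (edgeR adjusted p = 0.00317). At chr12:62706351-62706650, 51850 bp from its neighbour, it was 4.61 ± 1.15 and 1.42 ± 0.654 CPM (edgeR adjusted p = 0.00376). The other 6 of the 10 highest lay on chromosomes X, X, 2, 22, 1 and 4, with log2 fold changes of 1.42 to 1.64 and edgeR adjusted p of 0.0108 to 0.0397. Each of these 6 lost its call when at least 1 single library was left out, and chr22:38055251-38055500 also lost it with DESeq2 (adjusted p = 0.317). Without Etop replicate 1, which had 0.144 CPM at chrX:99665101-99665350 and 0 CPM at chr22:38055251-38055500, the edgeR adjusted p was 0.0597 and 0.171. The 10 highest were named from 24 eligible regions that were higher, while the 10 lowest came from 649 that were lower.

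**Figure D3:**
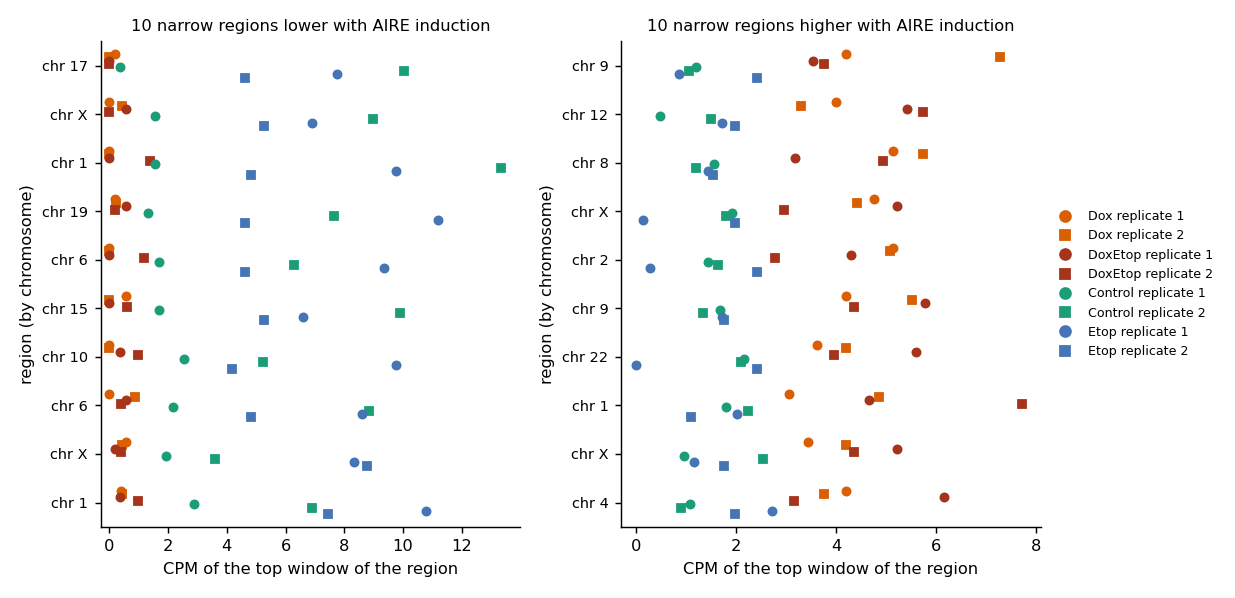
CPM of the strongest window in the 10 narrow regions with the lowest (left) and the 10 with the highest (right) log2 fold change with AIRE induction, 1 row per region labelled by chromosome; each point is a library. In the left panel the AIRE-induced libraries lie at 0 to 1.38 CPM, and Control replicate 1 lies below the other uninduced libraries.

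Narrow regions differed in their response by distance to the nearest other region. A narrow region lay a median of 1300 bp from its nearest neighbour and a wider region 2250 bp. Of the narrow regions 7017 (46.2%) had a neighbour within 1 kb, 4309 (28.4%) within 1 to 10 kb, 3147 (20.7%) within 10 to 100 kb and 716 (4.71%) only farther away. The difference in median level between the arms was -0.151 up to 1 kb, -0.320 over 1 to 10 kb, -0.333 over 10 to 100 kb and -0.120 over 100 kb (exact permutation test, two-sided, p = 0.0286, n = 4 each, adjusted p = 0.0286 over the 4 classes). Regions at 1 to 100 kb thus fell most, and both the crowded and the most remote ones fell less. Distance and chromosome were not separated here. Across chromosomes the narrow difference rose with the median distance of narrow regions (Spearman rho = 0.504, as a description).

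The steps between neighbouring classes were tested as differences within each library. From up to 1 kb to over 1 to 10 kb the difference between the arms moved by -0.169, and from 10 to 100 kb to over 100 kb by 0.213 (exact permutation test, two-sided, p = 0.0286, n = 4 each, adjusted p = 0.0429 over 3 steps). The step between the middle classes was -0.0135 (exact p = 0.571). Median summed counts in the 4 classes were 132, 134, 137 and 136. The narrow difference itself was -0.314 at 130 to 134 counts and -0.406 at 135 to 160. Distance classes were not matched for summed count, and its part in the steps was not tested. Windows called lower made up 7.55%, 11.9%, 12.8% and 7.81% of the 4 classes, also with the middle classes highest. Higher calls were 0.556%, 0.242%, 0.456% and 2.15%, with 90, 24, 37 and 42 windows, so that the rate per window was highest in the most remote regions and the number highest within 1 kb. In wider regions the differences over the same distances were 0.0464, -0.0315, 0.0407 and 0.107. The steps were not tested there. The difference between the arms was lower in narrow than in wider windows at each distance. It was lower by -0.197, -0.288, -0.374 and -0.227 (exact permutation test, two-sided, p = 0.0286 each, n = 4 each, adjusted p = 0.0286).

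**Figure D4:**
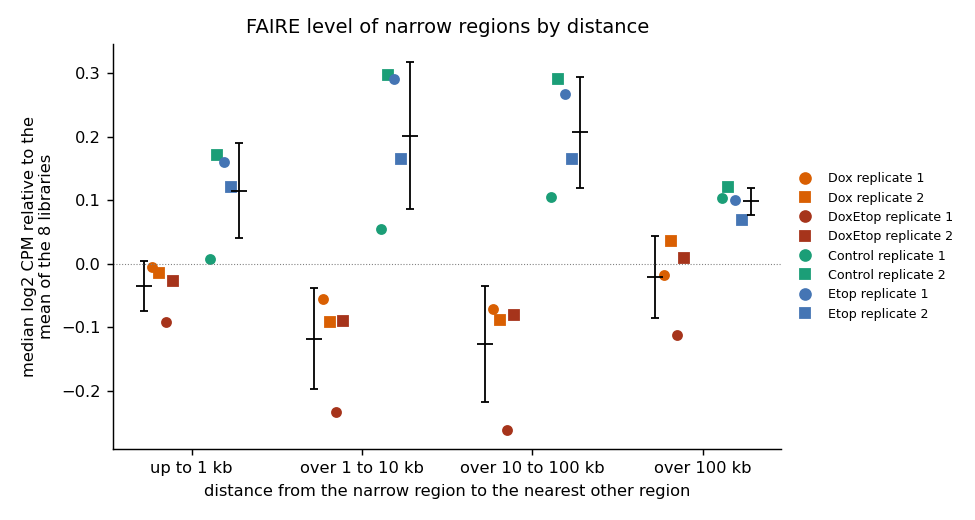
Median log2 CPM of narrow-region windows, relative to each window's mean over the 8 libraries, by distance to the nearest other region; points are libraries, and bars are the mean ± SD of the 4 AIRE-induced (left) and the 4 uninduced libraries (right). The arms are farthest apart at 1 to 10 kb and 10 to 100 kb, where they differ by -0.320 and -0.333.

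Narrow regions were also grouped by the width of their neighbour, and differences between these groups were not tested. Beside a region of up to 300 bp the difference between the arms was -0.233, beside one of over 300 and up to 1000 bp it was -0.212, and in the 1280 narrow regions whose neighbour was over 1000 bp wide it was -0.364. In those 12.1% of windows were called lower, against 9.51% and 9.95% in the other classes. A narrow region called lower by its strongest window had a nearest region that was also called lower in 11.7% of 557 cases within 1 kb, against 5.89% over all narrow regions at that distance. Over 1 to 10 kb these shares were 10.8% of 498 and 8.63%, over 10 to 100 kb 9.98% of 441 and 7.82%, and over 100 kb 6.35% of 63 and 4.61%. Most regions next to a narrow region called lower were not called lower themselves. Regions close together can share fragments, and the part of this in the share within 1 kb was not tested.

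The farthest, chr21:11143851-11144100, lay 4444150 bp from its neighbour and had 8, 10, 12 and 8 counts in the AIRE-induced libraries, against 30 and 35 in Control and 18 and 25 in Etop. Its arms were apart, but the window did not pass (log2 fold change -1.14, edgeR adjusted p = 0.0664). The regions chr4:134070201-134070500, chr5:21459501-21459650, chr13:58204001-58204300 and chrX:8700251-8700400 were 4055250, 3838500, 2533600 and 2428850 bp from their neighbours, with log2 fold changes of 0.48, 0.19, -0.08 and 0.58, and none passed (edgeR adjusted p = 0.422 to 0.917).

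Narrow regions were spread over all chromosomes, unevenly. Chromosome 19 held 2592 of them and chromosome 1 held 1976, which is 17.1% and 13.0% of the total. On chromosome 13 narrow regions were 55.6% of all regions and on chromosome 15 52.3%, whereas on chromosomes 5, 6 and 12 they were 34.9%, 35.5% and 35.5%. Their spacing ran from a median of 800 bp on chromosome 19 to 24950 bp on chromosome 13.

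The loss with AIRE induction was found on most chromosomes but not on all. The difference in median level was below 0 on 19 of 23 chromosomes, and 17 passed the exact permutation test after adjustment over the 23 (two-sided, p = 0.0286 and adjusted p = 0.0387 for each, n = 4 each). It was strongest on chromosome 10, at -0.157 ± 0.134 in AIRE-induced and 0.242 ± 0.134 in uninduced libraries, a difference of -0.399. Chromosome 1 followed at -0.361, chromosome 19 at -0.323, chromosome 6 at -0.321 and chromosome 15 at -0.306. Of the chromosomes that passed, 2 went the other way: chromosome 8, at 0.0957 ± 0.0451 in AIRE-induced and -0.0303 ± 0.0473 in uninduced libraries, and chromosome 13, at 0.114 ± 0.0340 and -0.0351 ± 0.0658. Chromosomes 4 and 20 were at 0.0395 and 0.0235, chromosomes 9, 3, 11 and X at -0.0121, -0.0169, -0.0531 and -0.196, and these 6 did not pass (exact p = 0.0571 to 0.657). On chromosome 8 the narrow windows called lower were 20 and those called higher 23, the only chromosome of the 23 on which lower calls did not outnumber higher ones.

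Chromosomes with a larger narrow difference tended to have a larger wider difference. Across the 23 chromosomes the narrow and wider differences correlated at Pearson r = 0.699 and Spearman rho = 0.818, as a description over chromosomes that share all 8 libraries and their scaling. The difference between the arms was lower in narrow regions than in the wider ones of the same chromosome on 22 of 23. Chromosome 13 was the exception at 0.0180 (narrow minus wider). The arms separated in this comparison on 16 of the 23, and among the 22 they did not on chromosomes 3, 4, 8, 19, 20 and X (exact permutation test, two-sided, p = 0.0571 to 0.371, n = 4 each). Outside chromosome 19, which holds the most narrow regions, the difference between the arms was -0.217 (exact permutation test, two-sided, p = 0.0286, n = 4 each), with 9.86% of windows lower and 0.589% higher. On chromosome 19 itself narrow and wider windows were called lower at nearly the same rate, 10.3% and 9.98%, while on chromosome 18 the rates were 11.8% and 1.75%.

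**Figure D5:**
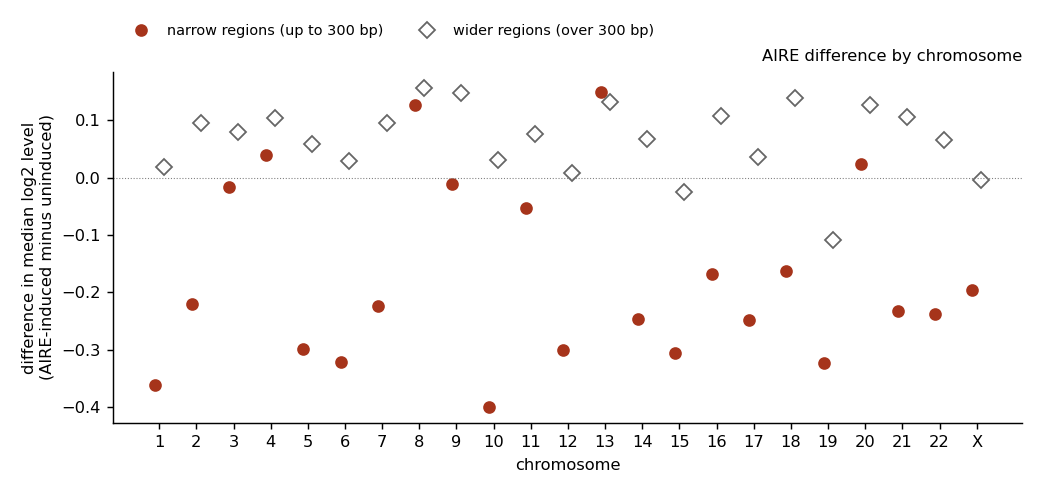
Difference in median log2 level between AIRE-induced and uninduced libraries (induced minus uninduced) by chromosome, for windows of narrow regions (filled) and of wider regions (open). The narrow point lies under the wider one on 22 of 23 chromosomes, from -0.399 on chromosome 10 to 0.149 on chromosome 13, where it lies above.

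Without etoposide, AIRE induction (Dox vs Control) lowered signal at 448 narrow windows and raised it at 5. These are 1.24% and 0.0138% of the narrow windows, against 0.848% and 0.0156% over all windows (0.864% in either direction). The deepest losses were at regions already named. At chr1:226735451-226735750 both Dox libraries had 0 counts, while Control had 13 and 89. Set against a floor of 3 counts in each library, this is at least 11.1-fold lower in Dox (edgeR, n = 2 each, adjusted p = 0.000685). At chr6:36328301-36328500 and chr10:104238751-104239050 both Dox libraries also had 0 counts, against 14 and 42, and 21 and 35, in Control, in each case at least 6.09-fold lower. At chr17:41322301-41322500 Dox had 1 and 0 counts and Control 3 and 67, so Control replicate 1 was close to Dox there. The one named gain was chr9:139948151-139948350, at 5.74 ± 2.18 CPM in Dox and 1.13 ± 0.110 CPM in Control (SD, n = 2 each; edgeR log2 fold change 2.31, SE 0.59, adjusted p = 0.0365). The lower count was 0 without Control replicate 2, without Dox replicate 1 or without Dox replicate 2, and 890 without Control replicate 1. DESeq2 called 15 windows lower and 0 higher.

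With etoposide present, AIRE induction (DoxEtop vs Etop) lowered 1499 narrow windows and raised 52. That is 4.14% and 0.144% of the narrow windows, against 2.43% and 0.45% of all windows (2.88% in either direction). At chr17:41322301-41322500 both DoxEtop libraries had 0 counts, while Etop had 54 and 21. Set against the same floor, this is at least 11.3-fold lower in DoxEtop (edgeR, n = 2 each, adjusted p = 0.000653). At chrX:128109751-128110000 DoxEtop had 1 and 2 counts and Etop 58 and 40, or 0.291 ± 0.148 and 8.55 ± 0.312 CPM, 29.5-fold lower (counting interval 9.81 to 146, edgeR adjusted p = 0.000121). At chr1:225960051-225960350 it was 3 and 0 counts in DoxEtop, against 54 and 33 in Etop, and at chr19:42789251-42789450 1 and 1 against 35 and 24. Etop replicates were alike at these last 3 regions, and both lay far above DoxEtop.

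Of the 4 named gains with etoposide present, 1 was high in DoxEtop alone and 3 were low in Etop beside the other groups. At chr3:128327251-128327550 DoxEtop had 6.72 and 8.90 CPM and Etop 1.58 and 1.97 CPM, while Dox had 2.86 and 1.54 CPM and Control 2.77 and 4.04 CPM. DoxEtop was thus the one high group at this region (log2 fold change 2.14, SE 0.51, edgeR adjusted p = 0.0109). At chr20:62477551-62477800 DoxEtop had 3.92 and 5.54 CPM and Etop 1.01 and 0.658 CPM, while Dox had 3.62 and 3.75 CPM and Control 2.77 and 3.45 CPM. At chr11:61735101-61735400 the means were 4.13 ± 0.0351 CPM in DoxEtop and 0.945 ± 0.524 CPM in Etop (SD, n = 2 each), with 2.41 and 3.0 CPM in Control. At chr18:45936051-45936300 they were 4.49 ± 1.04 CPM in DoxEtop and 0.903 ± 0.347 CPM in Etop, with 2.41 and 3.30 CPM in Control. Leaving out DoxEtop replicate 1 gave 15 lower and 0 higher calls. Leaving out Etop replicate 1 gave 273 and 1, and leaving out Etop replicate 2 gave 2402 and 444. DESeq2 called 444 lower and 5 higher.

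The AIRE contrasts without and with etoposide share no library, though they come from 1 fit. Of the windows lower in Dox vs Control 264 were also lower in DoxEtop vs Etop, which is 58.9% of the 448 and 17.6% of the 1499. All 448 had a log2 fold change below 0 in DoxEtop vs Etop, and 95.9% of the 1499 had one below 0 in Dox vs Control. None of the 5 and 52 higher windows was shared. Over all narrow windows 68.0% had the same sign in both contrasts, close to the 67.1% of wider windows. No narrow window passed the test of the difference between the contrasts (edgeR interaction term, smallest adjusted p = 1.0), with 1121 below 0 and 623 above 0 at an unadjusted p under 0.05 and 0 by DESeq2. These unadjusted counts are 3.10% and 1.72% of narrow windows, against 1.86% and 2.17% of wider ones.

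Etoposide left no narrow window past the threshold. With AIRE state as a second factor, 0 of 36189 were called, as was 0.0% of the whole table (edgeR, smallest adjusted p in narrow regions 0.198), with 1095 lower and 1156 higher at an unadjusted p under 0.05 and 1 call by DESeq2. The same was found for Etop vs Control (smallest adjusted p = 0.855, 897 lower and 1268 higher at an unadjusted p under 0.05) and for DoxEtop vs Dox (smallest adjusted p = 1.0, 1141 lower and 659 higher), each with 0 calls by edgeR and by DESeq2. Without Etop replicate 2, 31 narrow windows were called in Etop vs Control, and without Control replicate 2 there were 2. The median level of narrow windows differed by -0.0144 between the 4 libraries with etoposide and the 4 without (exact permutation test, two-sided, p = 0.857, n = 4 each). The size of change that could have been called at these counts was not measured.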

How the data were processed

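FAIRE-seq libraries of 4 groups with 2 replicates each were used. The authors deposited 1 table of raw read counts in windows, with a column for each library. Per the labels' protocols the libraries were TruSeq ChIP libraries read in pairs of 100 bp and sequenced 2 times, with 10% of each sample kept as input, which was not analysed here. Trim Galore, Bowtie2, Bowtie and hg19 are named in the submitters' processing notes. Their versions and roles, the counting tool, the window choice and the treatment of duplicates are stated neither in the labels nor in the file.

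Columns were matched to samples by title. Counts were tested with edgeR 4.0.16 (R 4.3.3; TMM, glmQLFit, glmQLFTest) on all 256141 windows, with AIRE induction and etoposide as additive terms or with 1 mean per group, and Benjamini-Hochberg adjustment at 0.05. filterByExpr removed 0 windows. The SE of a log2 fold change is its size divided by the square root of F. Levels per library are medians of log2 CPM with a prior count of 2, compared by exact permutation over 70 assignments (smallest p 0.0286). Groups of 2 cannot go below an exact p of 0.333 and were compared with edgeR alone. DESeq2 1.42.0, other scalings, filters, merges and left-out libraries were alternatives. The procedure was tested on simulated counts.

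Each region is described by its window with the highest summed count. Named regions had that window called, above the median level of narrow regions and with groups apart. They are the 10 lowest and 10 highest log2 fold changes for AIRE induction and up to 4 each for Dox vs Control and DoxEtop vs Etop; 5 more were described for level and 5 for distance. By this rule etoposide gave none. Members, classes and lists were chosen with earlier results of these data known. Replicates differed by more than sampling noise (chi-square per degree of freedom 1.82 to 3.19 over 1 window per narrow region), so none was counted as a repeat of another.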

Additional observations from a re-analysis of the deposited data

Results flagged for a closer look

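In groups of 4 libraries, 1 library was compared with the other 3 for the values the text reports, and 10 of 56 groups had a library set apart by over 0.829 of the range (Dixon's critical value). Chance flags about 1 in 20 such groups, and windows at 0 or 1 count give large gaps easily. The median level of narrow windows was -0.167 in DoxEtop replicate 1, against -0.0554 to -0.0339 in the other AIRE-induced libraries. At distances over 10 to 100 kb it was -0.263 in DoxEtop replicate 1, against -0.0887 to -0.0717.

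In the AIRE-induced libraries, the window at 41322301 on chromosome 17 had 0.191 CPM in Dox replicate 1 and 0 in the other 3. DoxEtop replicate 2 had 1.38 CPM at 226735501 on chromosome 1 and 1.19 CPM at 36328301 on chromosome 6, where the other 3 had 0. At 54547401 on chromosome 1 it had 0.989 CPM, against 0.373 to 0.441. DoxEtop replicate 1 had 0.560 CPM at 40951951 on chromosome 19, against 0.191 to 0.221.

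In the uninduced libraries, Etop replicate 1 had 0.144 CPM at 99665151 on chromosome X, against 1.80 to 1.97, and 0 CPM at 38055301 on chromosome 22, against 2.10 to 2.41. Both of these windows were named as higher with AIRE induction. Control replicate 2 had 1.35 CPM at 129622551 on chromosome 9, against 1.69 to 1.75.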

How the results depend on the processing

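Most narrow windows had few counts, which limits all of these values, and the cause of each move below was not tested unless fewer windows or libraries make it plain. With 1 window per region, calls with AIRE induction were 1559 lower and 71 higher, in Dox vs Control 192 and 1, and in DoxEtop vs Etop 674 and 23. With windows of at least 3 CPM they were 1615 and 43, 273 and 3, and 740 and 12. With windows that reach the most frequent sum both ways, an alternative chosen after seeing the data, they were 1243 and 61, 134 and 1, and 442 and 17. DESeq2 gave 15 and 0 in Dox vs Control, 444 and 5 in DoxEtop vs Etop, and 1 for etoposide. Leaving out 1 library gave 1402 to 4536 lower and 39 to 229 higher with AIRE induction, 0 to 890 and 0 to 19 in Dox vs Control, 15 to 2402 and 0 to 444 in DoxEtop vs Etop, 0 to 1 for etoposide and 0 to 31 in Etop vs Control.

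The level difference of -0.235 at narrow windows ran from -0.269 to -0.208, and that between narrow and wider windows from -0.313 to -0.232, when 1 library was left out; without an AIRE-induced library the exact p was 0.0571. In regions formed again at 4 and 5 CPM, chosen after seeing the data, the level difference turned to 0.00449 and 0.0634, and the narrow-minus-wider difference was -0.0747 (exact p = 0.0571) and -0.0146 (exact p = 0.257). In single-window regions the narrow-minus-wider comparison gave -0.252 (exact p = 0.0571). Same-numbered libraries deviated together with correlations of -0.0732 to 0.120 over all windows. Relative levels of replicates of the same group correlated at only 0.0992 to 0.151 over narrow windows. Whether the numbers pair libraries cannot be told from values this low. With a replicate block the differences stayed at -0.235 and -0.266 with an exact p of 0.0556, the smallest that block allows, and Dox vs Control gave 294 lower and 3 higher calls. DESeq2 kept 19 of 20 named regions for AIRE induction, 1 of 5 for Dox vs Control and 4 of 8 for DoxEtop vs Etop, and no named region changed direction under any alternative run.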
